A study of Homo sapiens with 8 samples.

Results

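Cytoskeletal intermediate filament genes were followed in 2D human intestinal epithelial cells (hIECs): the simple-epithelial keratins KRT7, KRT8, KRT18, KRT19 and KRT20, together with the vimentin gene VIM and the nestin gene NES. These 7 members of the filament set were taken by gene name from the 60558 genes listed for each library, and the rule used no measured value. The RNA-seq data comprised 8 libraries, 2 for each of 4 groups. The normal hIECs received neither agent. The normal PM10 group received PM10, airborne particulate matter of small diameter. The inflamed hIECs received the cytokines IFNγ and TNFα, and the inflamed PM10 group received both cytokines and PM10. The labels give 10 days for every library. By the study's account that is the time of the cytokines, PM10 was present only for the last part of it, and the normal hIECs were cultured without either. All groups came from H9, a single human embryonic stem cell line, so the values describe 1 genetic background. The cells passed through definitive endoderm, hindgut and a progenitor stage grown in EGF and R-spondin1. By the study's account the progenitors were then differentiated into hIECs in a medium with EGF, Wnt-C59, valproic acid and serum. The cytokines and PM10 were given during that differentiation. The labels number the libraries of a group but do not say whether they came from separate cultures, and p-values then measure only the spread between libraries, which may be technical.

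Intermediate filaments are rope-like polymers that give cells mechanical strength. Keratins assemble only as pairs of a type I and a type II chain. KRT8 (type II) and KRT18 (type I) form the first pair of simple epithelia, KRT7 is a further type II chain typical of ducts, and KRT19 and KRT20 are type I chains, of which KRT20 marks differentiated enterocytes and goblet cells. Vimentin is the type III filament protein of mesenchymal cells and of many cells in culture, and nestin is a large type IV protein of neural and other progenitor cells that copolymerises with vimentin.

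The 5 keratin genes lie in both human keratin clusters. On GRCh38 with GENCODE release 44, KRT7 was at chr12:52232520-52252186 on the plus strand, KRT8 at chr12:52897187-52949954 on the minus strand and KRT18 at chr12:52948871-52952906 on the plus strand. KRT19 was at chr17:41523617-41528308 and KRT20 at chr17:40875889-40885242, both on the minus strand. VIM was at chr10:17228241-17237593 on the plus strand and NES at chr1:156668763-156677407 on the minus strand. KRT8 and KRT18 point away from each other across a shared end, and 525 bases of their annotated exons coincide, which is 7.63% of the exonic bases of KRT8 and 17.1% of those of KRT18. The libraries kept no strand information, so reads from these 525 bases cannot be assigned to 1 gene.

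RefSeq promoter windows on GRCh38.p14 were held for 4 of the 7 genes (KRT8, KRT20, VIM and NES). The stretches before the start sites of VIM and NES are shown because both were expressed and the windows lie at the start of their canonical transcripts. The window of KRT8 is not shown, as it lies at an annotated start at position 52926469, upstream of the start of the Ensembl canonical transcript at 52905076, and KRT20 was not detected. Each is the 250 bases before the start, read 5′ to 3′ on the strand of the gene, chr10:17227991-17228240 on the plus strand for VIM and chr1:156677408-156677657 on the minus strand for NES. Capitals mark the GC box, GGGCGG or its reverse complement CCGCCC.
VIM: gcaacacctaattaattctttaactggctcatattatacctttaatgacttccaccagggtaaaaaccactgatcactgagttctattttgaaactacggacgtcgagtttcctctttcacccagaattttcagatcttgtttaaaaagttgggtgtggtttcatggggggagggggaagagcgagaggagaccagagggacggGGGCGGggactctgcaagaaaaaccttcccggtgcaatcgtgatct
NES: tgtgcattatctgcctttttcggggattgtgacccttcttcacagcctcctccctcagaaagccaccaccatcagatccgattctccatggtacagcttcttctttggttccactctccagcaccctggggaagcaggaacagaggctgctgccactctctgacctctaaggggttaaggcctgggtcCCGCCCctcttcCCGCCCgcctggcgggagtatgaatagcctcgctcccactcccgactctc
VIM had 1 GC box and NES had 2 in these stretches. GC boxes were in 45.0% of all 35116 promoter windows of 300 bases (250 before the start and 50 after it), so their presence was common. The motif was added after 4 others had been searched on both strands. The windows of VIM, NES and KRT20, and the upstream window of KRT8, did not hold the interferon gamma activated site (TTCNNNGAA, in 7.66% of all windows), the core of the interferon-stimulated response element (GAAANNGAAA, 3.57%), the AP-1 site (TGANTCA, 7.71%) or the TATA box (TATAAA, 11.5%). A match or its absence describes only the letters of these windows.

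Values are given as FPKM, the number of sequenced fragments divided by transcript length and by the mapped total of the library, so that levels can be compared between genes. VIM was the highest of the genes, followed by KRT8, KRT18 and NES, and this order held in 8 of 8 libraries. VIM ranked between 52nd and 88th of all genes in a library, KRT8 between 160th and 291st, and KRT18 between 217th and 550th. KRT7 and KRT19 lay between 0.201 and 2.20 FPKM, and neither was above the other in every library, KRT19 being higher in 7 of 8. KRT20 was listed at 0 FPKM in all 8 libraries and could not be tested.

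KRT8, the type II partner, stood at 373 and 383 FPKM in the 2 normal libraries, 361 and 382 FPKM in the normal PM10 libraries, 209.6 and 219.5 FPKM in the inflamed libraries and 195.0 and 185 FPKM in the inflamed PM10 libraries. The 4 libraries with cytokines all lay below the 4 without, and PM10 left the normal libraries overlapping. KRT18, the type I partner, stood at 266 and 265 FPKM in normal hIECs, 235 and 252 FPKM with PM10, 141 and 126 FPKM in inflamed hIECs and 109 and 100.1 FPKM in inflamed hIECs with PM10. Its 4 groups did not overlap, with the normal libraries highest and the inflamed PM10 libraries lowest.

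VIM was measured at 923 and 904 FPKM in normal hIECs and at 733 and 718 FPKM in normal hIECs with PM10. It was measured at 964 and 973 FPKM in inflamed hIECs and at 834 and 823 FPKM in inflamed hIECs with PM10. The PM10 libraries were the lower ones in both the normal and the inflamed state, and no groups overlapped. NES was at 41.7 and 37.9 FPKM in normal hIECs, 39.0 and 38.0 FPKM in normal hIECs with PM10, 53.7 and 53.4 FPKM in inflamed hIECs and 52.0 and 52.9 FPKM in inflamed hIECs with PM10. The 4 cytokine libraries were all above the 4 others, and the PM10 libraries of normal hIECs lay within the range of those without PM10.

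KRT7 was at 1.55 and 1.12 FPKM in normal hIECs, 0.391 and 0.201 FPKM in normal hIECs with PM10, 0.608 and 0.652 FPKM in inflamed hIECs and 0.649 and 1.04 FPKM in inflamed hIECs with PM10. Only 3 of its 8 values reached 1 FPKM, and both normal libraries were among them, so KRT7 passed the expression filter through the group in which it was highest. Its falls against normal hIECs are therefore given as values and not as support for a change. KRT19 was at 1.19 and 2.20 FPKM in normal hIECs, 0.862 and 1.33 FPKM with PM10, 1.16 and 0.925 FPKM in inflamed hIECs and 0.798 and 1.50 FPKM in inflamed hIECs with PM10. For KRT19 only the normal and inflamed libraries did not overlap, and the normal libraries were the most spread. The smallest non-zero values of the libraries were 0.164 to 0.228 FPKM, and KRT7 in normal PM10 replicate 2 was at such a value, while KRT19 was at 0.798 FPKM or more in every library.

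**Figure D1:**
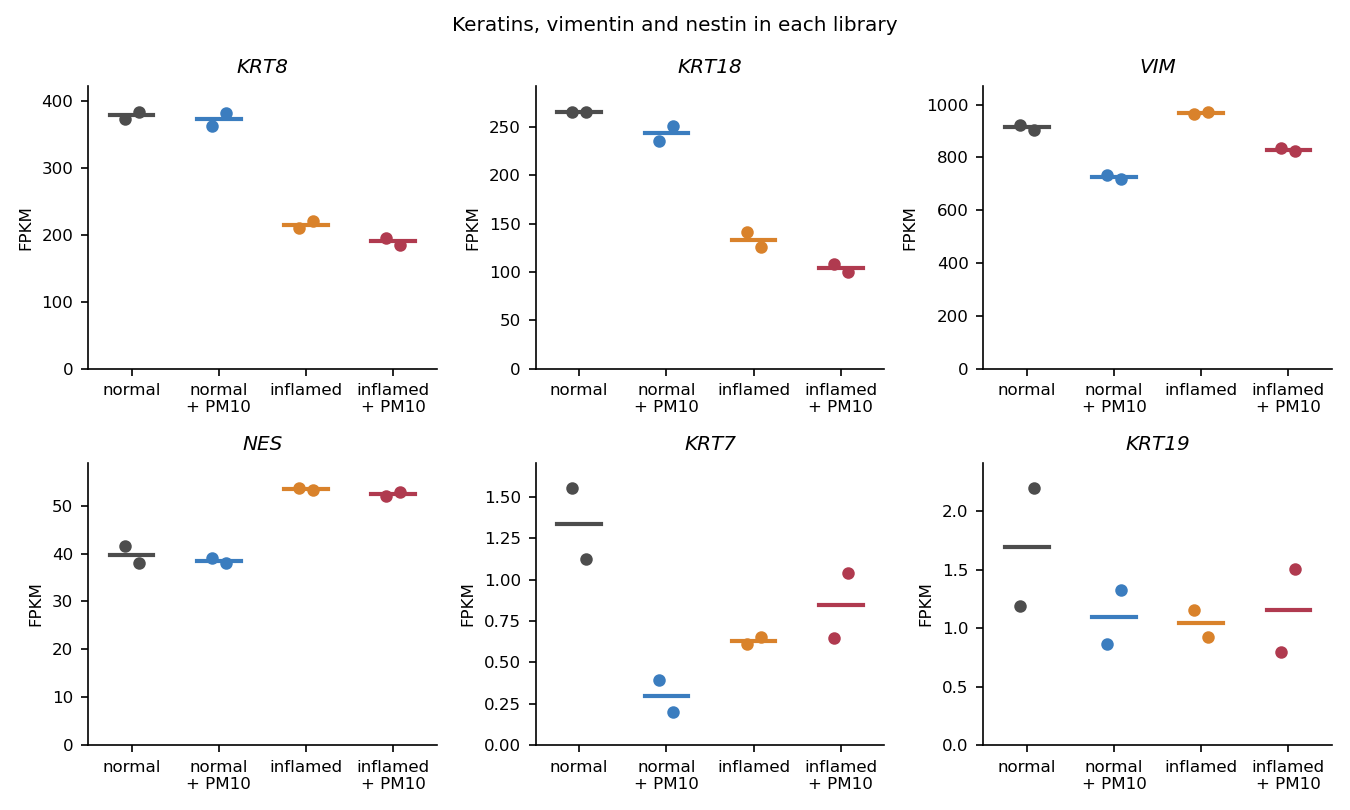
FPKM of 6 genes (vertical axes, starting at 0) in each of the 8 libraries, by group, with 1 point per library and a line at the group mean (n = 2). KRT8 and KRT18 are lower and NES is higher in the 4 cytokine libraries, VIM is lower in both PM10 groups than in the matching group without PM10, and KRT7 and KRT19 stay at or below 2.20 FPKM.

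The first question was how the cytokines changed these genes. In hIECs without PM10, KRT8 and KRT18 fell and NES rose. The mean of KRT8 went from 378 ± 7.3 FPKM (SD, n = 2) to 215 ± 7.0 FPKM, a log2 fold change of -0.82 (SE 0.052, adjusted p = 1.35e-05, limma on log2(FPKM + 1) with Benjamini-Hochberg adjustment over the 14206 genes tested). The mean of KRT18 went from 266 ± 0.51 to 134 ± 10 FPKM, a log2 fold change of -0.99 (SE 0.069, limma adjusted p = 2.14e-05). As these are bulk samples, fewer cells of a type and less RNA per cell cannot be told apart. NES rose from 39.8 ± 2.6 to 53.5 ± 0.22 FPKM, a log2 fold change of 0.42 (SE 0.055, limma adjusted p = 0.000502).

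KRT7 had a log2 fold change of -0.51 in the same comparison (SE 0.15, limma adjusted p = 0.0200, and 0.0264 with no expression filter), a call that was lost without normal replicate 1 (adjusted p = 0.105), inflamed replicate 1 (0.0797) or inflamed replicate 2 (0.0627). With pseudocounts of 0.5 and 0.1 the value was -0.69 and -0.96. VIM had a log2 fold change of 0.08 (SE 0.041, limma adjusted p = 0.118) and did not pass, although its 2 inflamed libraries lay above both normal libraries. It did pass after quantile normalization (0.35, adjusted p = 0.000218), after rescaling of the nuclear genes (0.12, adjusted p = 0.0155) and without normal replicate 1 (0.10, adjusted p = 0.0236). KRT19 had a log2 fold change of -0.38 (limma adjusted p = 0.192). In all, 4 of the 6 tested members were called, 1 higher and 3 lower, or 3 of 5 with KRT7 left aside, where 56.2% of all tested genes were called, 25.9% higher and 30.3% lower. A call was therefore the common outcome in this comparison. The median over all tested genes was -0.03 on the log2 scale.

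In the presence of PM10, the cytokine comparison used the other 4 libraries. KRT8 fell by 0.96 (SE 0.052, limma adjusted p = 4.16e-06) and KRT18 by 1.21 on the log2 scale (SE 0.069, limma adjusted p = 5.39e-06), and their group means fell by 48.9% and 57.1%. NES rose by 0.44 (SE 0.055, limma adjusted p = 0.00032). VIM passed the test here, with a rise of 0.19 (SE 0.041, limma adjusted p = 0.00469). KRT7 was higher by 0.51 (SE 0.15, limma adjusted p = 0.0183), the opposite direction to the comparison without PM10, and lost the call without normal PM10 replicate 2 (0.40, adjusted p = 0.0992) or inflamed PM10 replicate 2 (0.35, adjusted p = 0.115). With a pseudocount of 0.1 it was 1.27. KRT19 had a log2 fold change of 0.03 (limma adjusted p = 0.921). Of the 6 tested members 5 were called, 3 higher and 2 lower, or 4 of 5 with KRT7 left aside, against 65.4% of all tested genes, 25.8% higher and 39.6% lower. The median over all tested genes was itself at -0.11 on the log2 scale, and the falls of KRT8 and KRT18 were large beside it.

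The calls for KRT8, KRT18 and NES in both cytokine comparisons held in every alternative that was run, and their direction was the same under each scaling. For KRT8 the log2 fold change without PM10 was -0.81 with median centring, -0.68 with quantile normalization and -0.78 after rescaling of the nuclear genes. For KRT18 it was -0.99, -0.98 and -0.95 in the same order. For NES it was 0.42, 0.42 and 0.46.

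The second question was whether PM10 changed these genes in normal and in inflamed hIECs. In normal hIECs VIM fell from 914 ± 14 to 726 ± 10 FPKM (SD, n = 2), a mean that fell by 20.6%, with a log2 fold change of -0.33 (SE 0.041, limma adjusted p = 0.00613). This call was lost when only the normal and normal PM10 libraries entered the fit (adjusted p = 0.124) and without normal PM10 replicate 1 (0.0525) or 2 (0.0606). KRT7 had a log2 fold change of -0.85 (SE 0.15, limma adjusted p = 0.0183, and 0.0294 with no expression filter), with the same 3 settings losing the call (adjusted p = 0.107, 0.0665 and 0.0988). With a pseudocount of 0.1 it was -1.89. KRT8 changed by -0.03 (SE 0.052, limma adjusted p = 0.783), KRT18 by -0.13 (adjusted p = 0.266), NES by -0.05 (adjusted p = 0.625) and KRT19 by -0.35 (adjusted p = 0.344), and none of these passed. The count was 2 of 6 tested members, both lower, or 1 of 5 with KRT7 left aside, where 9.23% of all tested genes were called, 5.51% higher and 3.72% lower. The 2 normal libraries differed in their mitochondrial share, at 17.02% and 24.2% of all FPKM, against 20.4% and 20.2% with PM10. With the nuclear genes rescaled to a common sum, the log2 fold change of VIM was -0.29 (limma adjusted p = 0.0044).

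In inflamed hIECs VIM fell with PM10 from 969 ± 6.0 to 828 ± 8.2 FPKM, a mean that fell by 14.5%, with a log2 fold change of -0.23 (SE 0.041, limma adjusted p = 0.0134). After quantile normalization it was -0.05 (adjusted p = 0.352), and leaving out either inflamed or either inflamed PM10 library gave adjusted p from 0.075 to 0.094. KRT18 fell from 134 ± 10 to 104 ± 6.0 FPKM, a mean that fell by 21.9%, with a log2 fold change of -0.35 (SE 0.069, limma adjusted p = 0.0169). That call was lost with only the 4 inflamed libraries in the fit (0.0608), without inflamed replicate 1 (0.0976) and without inflamed PM10 replicate 2 (0.106). KRT8 stood at 215 ± 7.0 and 190.0 ± 7.0 FPKM, a log2 fold change of -0.17 that did not pass (limma adjusted p = 0.0633) but did without normal replicate 1 or 2 (adjusted p = 0.042 each). KRT7 at 0.17 (adjusted p = 0.466), KRT19 at 0.06 (adjusted p = 0.887) and NES at -0.03 (adjusted p = 0.756) did not pass. Again 2 of 6 tested members were called, both lower, where 15.2% of all tested genes were called, 6.22% higher and 9.02% lower.

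The third question was whether the PM10 effect differed between inflamed and normal hIECs, taken as the interaction of PM10 and cytokines. KRT7 alone was called among the 6 tested members, with a difference of 1.02 on the log2 scale (SE 0.21, limma adjusted p = 0.0336), where 6.6% of all tested genes were called, 2.11% higher and 4.48% lower. The call was lost without any 1 library other than normal replicate 2 (adjusted p from 0.0521 to 0.106), without the expression filter (0.0512) and with a replicate block (0.0549). The value itself depended on the pseudocount, at 1.44 with 0.5 and 2.23 with 0.1, and it rests on the normal libraries through which KRT7 passed the filter. The mean of KRT7 went from 1.34 ± 0.30 to 0.296 ± 0.134 FPKM with PM10 in normal hIECs and from 0.630 ± 0.031 to 0.845 ± 0.277 FPKM in inflamed hIECs. The interaction of VIM was 0.11 (adjusted p = 0.317), that of KRT8 -0.15 (adjusted p = 0.273), that of KRT18 -0.23 (adjusted p = 0.216), that of KRT19 0.40 (adjusted p = 0.495) and that of NES 0.02 (adjusted p = 0.928). The call of KRT18 in inflamed but not in normal hIECs thus came with a difference between both states that did not pass the test. For a single gene taken by itself, an exact permutation test of 2 libraries against 2 cannot give a p below 0.333.

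**Figure D2:**
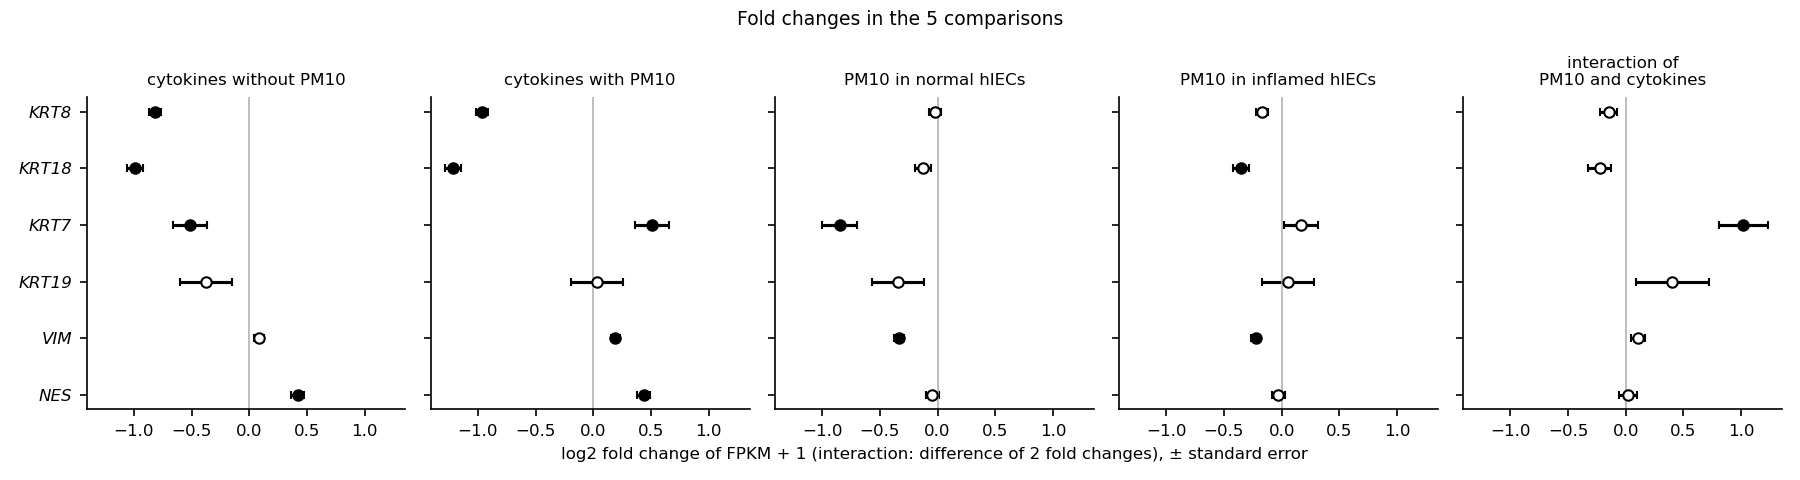
Log2 fold change of FPKM + 1 (horizontal axes, with the standard error from limma) for the 6 tested genes in the 5 comparisons, filled where the adjusted p is under 0.05 and open elsewhere. KRT8 and KRT18 are filled at -0.82 to -1.21 in both cytokine comparisons, VIM is filled at -0.33 and -0.23 in both PM10 comparisons, and only KRT7 is filled for the interaction.

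The keratin pool was nearly all KRT8 and KRT18, which made up 99.1% to 99.8% of the summed FPKM of the 5 keratins. That sum was 642 and 652 FPKM in normal hIECs, 598 and 635 FPKM with PM10, 352 and 347 FPKM in inflamed hIECs and 305 and 288 FPKM in inflamed hIECs with PM10. The cytokine libraries were all below the others. The ratio of KRT8 to KRT18 was 1.40 and 1.44 in normal hIECs, 1.54 and 1.52 with PM10, 1.49 and 1.74 in inflamed hIECs and 1.80 and 1.85 in inflamed hIECs with PM10. It was lowest in the normal and highest in the inflamed PM10 libraries, and the inflamed libraries, which were far apart, overlapped those of normal hIECs with PM10. The ratio of VIM to the 5 keratins was 1.44 and 1.39 in normal hIECs, 1.23 and 1.13 with PM10, 2.74 and 2.80 in inflamed hIECs and 2.74 and 2.86 in inflamed hIECs with PM10. The 4 cytokine libraries lay together and well above the 4 others. The ratio of VIM to NES ran from 22.2 and 23.8 in normal hIECs to 16.04 and 15.6 in inflamed hIECs with PM10. These sums and ratios are descriptions and carry no test.

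**Figure D3:**
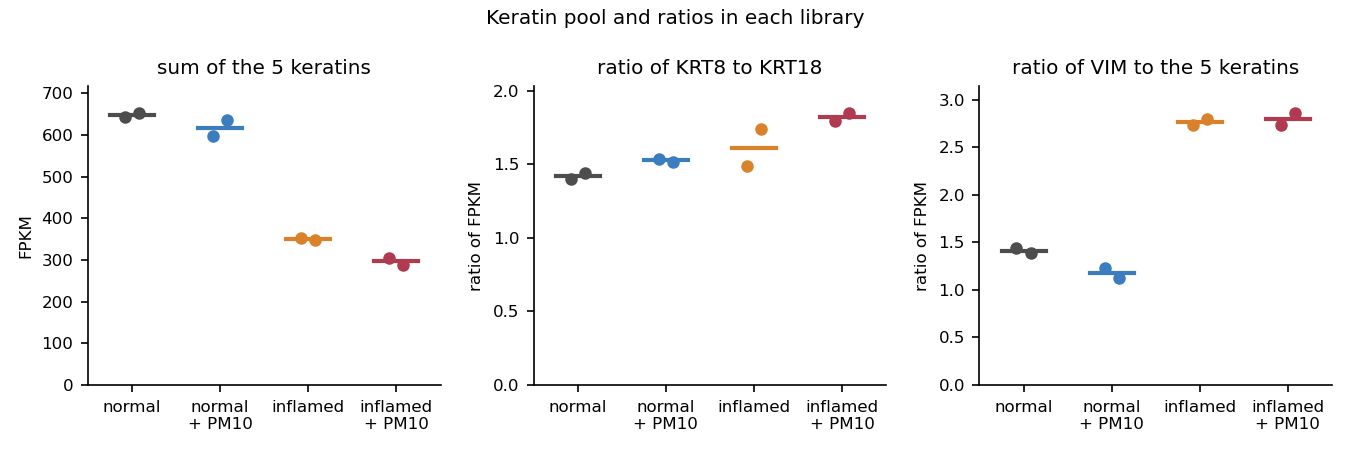
Summed FPKM of the 5 keratins, ratio of KRT8 to KRT18 and ratio of VIM to the 5 keratins (vertical axes, starting at 0) in each library, by group, with 1 point per library and a line at the group mean (n = 2). The keratin sum lies between 288 and 352 FPKM with cytokines and between 598 and 652 FPKM without, and the ratio of VIM to keratins is 2.74 to 2.86 with cytokines and 1.13 to 1.44 without.

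Other genes can share reads with these. By name, the genes listed for each library held 50 copies of KRT8, 67 of KRT18 and 5 of KRT19, mostly processed pseudogenes. Of these, 4, 3 and 0 were above 0 FPKM in any library, and their sums were 1.32% to 1.80% of KRT8 and at most 0.246% of KRT18. Cutting the Ensembl canonical transcripts into windows of 100 bases, 7.12% of the windows of KRT8 occurred also in its copies, and 18.5% of those of KRT18 in a transcript of KRT8. VIM overlaps the antisense genes VIM-AS1 (0.335 to 1.34 FPKM) and ENSG00000234961 (3.24 to 4.08 FPKM), which hold 29.0% of its windows, and reads of the 2 strands cannot be told apart there. KRT7 shared 8.32% of its windows with KRT7-AS, listed at 0 FPKM in all libraries. The span of KRT7 also overlaps those of KRT86 and KRT87P, which share 0 and 32 exonic bases with it. KRT86 was at most 0.388 FPKM and KRT87P was listed at 0. KRT19, KRT20 and NES shared no window with another gene.

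The label of the cells was set against markers. Of 18 intestinal markers 14 were listed at 0 FPKM in all 8 libraries, among them CDX2, VIL1, MUC2, LYZ and CHGA, and only KLF5 and LGR5 were high enough to be tested. Of 17 epithelial markers 15 were under 1 FPKM in every library, and CDH1, the E-cadherin gene of epithelial junctions, was above 0 in only 1. All 20 mesenchymal markers were tested, and they summed to 3938 to 4815 FPKM, while the 17 epithelial markers summed to 4.82 to 8.96 FPKM. The name hIEC is kept here as the study's name for the cells. In these libraries, whose read depth is unknown, most intestinal markers were listed at 0 FPKM, CDX2, VIL1, MUC2, LYZ and CHGA among them. By contrast, the paper reports these named markers in its hIECs by qPCR and immunostaining, and E-cadherin by immunostaining. It also reports lower CDX2, VIL1, LYZ and MUC2 by qPCR in inflamed hIECs with PM10. The cause of this difference between the methods was not tested. In the RNA-seq values, KRT8 and KRT18 were expressed at over 100 FPKM in libraries in which most other epithelial markers were near 0.

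**Figure D4:**
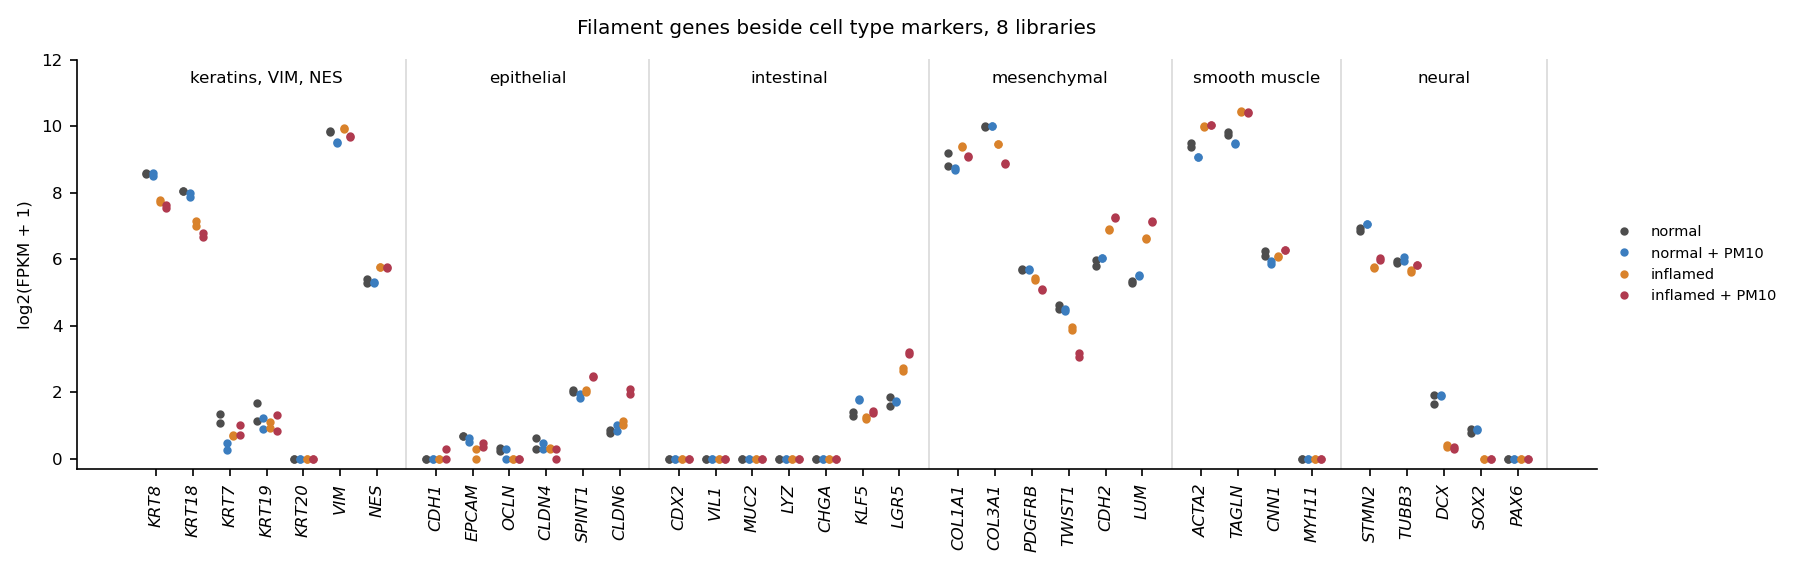
Level as log2(FPKM + 1) (vertical axis) of the keratins, VIM and NES beside markers of 5 cell classes, with 1 point per library, coloured by group. KRT8, KRT18 and VIM lie in the upper range, with both keratins below the mesenchymal collagens COL1A1 and COL3A1. CDX2, VIL1, MUC2, LYZ and CHGA are at 0 in all 8 libraries.

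The other keratins were almost silent. Of 24 further type II keratins 23 were under 1 FPKM in every library. The one tested was KRT81, a hair keratin with near-identical neighbours, at 3.14 and 2.76 FPKM in normal hIECs, 2.07 and 2.73 FPKM with PM10 and listed at 0 FPKM in all 4 cytokine libraries (limma adjusted p = 9.49e-06 without PM10). It passed the expression filter only through the libraries without cytokines, and with no filter the adjusted p was 2.24e-05. Of 25 further type I keratins, KRT10 and KRT17 were tested. KRT10, a chain of the upper epidermis, fell with cytokines by 0.50 (adjusted p = 0.00957), from 13.4 and 15.5 FPKM to 9.66 and 10.2 FPKM, and KRT17, a keratin of basal and stressed epithelium, rose by 0.67 (adjusted p = 0.00595), from 5.08 and 5.08 FPKM to 7.40 and 10.1 FPKM. Neither was called with PM10 in normal or in inflamed hIECs. The call of KRT10 was lost without normal replicate 2 (adjusted p = 0.0614) or inflamed replicate 1 (0.0538).

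With cytokines without PM10, 56.2% of all tested genes were called, 25.9% higher and 30.3% lower. Among 9 other type III and IV filament genes, 7 were tested and 5 were called in this comparison, 2 higher and 3 lower. Of these 7, DES, SYNM and SYNC passed the expression filter only through the libraries with cytokines, and among the other 4 genes 3 fell. The lower ones were neuronal: NEFM, the medium neurofilament chain, fell by 1.33 (adjusted p = 1.13e-06), INA, the internexin gene, by 0.98 (adjusted p = 4.01e-05) and NEFH, the heavy neurofilament chain, by 0.59 (adjusted p = 0.000209). NEFM stood at 128 and 119 FPKM in normal hIECs and at 48.0 and 49.1 FPKM in inflamed hIECs. DES, the desmin gene of muscle, rose by 0.47 (adjusted p = 0.0238), a call lost without normal replicate 1 or either inflamed library (adjusted p from 0.0566 to 0.118). The lower neurofilament values stood beside a lower neural list, in which 6 of 7 tested of 17 markers fell with cytokines, both without and with PM10, and 8 were listed at 0 in all libraries. Of all tested genes 30.3% were called lower with cytokines without PM10 and 39.6% with PM10. DCX fell by 1.40 (adjusted p = 3.03e-05), FABP7 by 1.31 (0.000112), NGFR by 1.23 (1.72e-05) and STMN2 by 1.14 (1.89e-06) without PM10. DCX and FABP7 passed the expression filter only through the libraries without cytokines (adjusted p = 6.49e-05 and 0.000221 with no filter), and of the other 5 tested markers 4 fell. That list summed to 191 to 199 FPKM in normal, 209 to 216 FPKM in normal PM10, 111 to 112 FPKM in inflamed and 126 to 128 FPKM in inflamed PM10 libraries. NES, itself often used as a neural progenitor marker, moved the other way, and the part of these cells in its level was not tested.

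The mesenchymal list, of which VIM is the classical filament, did not move in a single direction with cytokines. Of 20 markers 11 rose and 6 fell without PM10, with LUM at 1.31 (adjusted p = 6.17e-07), S100A4 at 1.33 (0.000168), CDH2 at 1.01 (1.54e-05) and PDGFRA at -0.69 (6.48e-05). With PM10 in normal hIECs, where VIM fell, 4 mesenchymal markers rose and 2 fell, and in inflamed hIECs 2 rose and 8 fell. Its sum was 4169 to 4269 FPKM in normal, 3938 to 3993 FPKM in normal PM10, 4779 to 4815 FPKM in inflamed and 4425 to 4460 FPKM in inflamed PM10 libraries. The smooth muscle list had 7 of 9 markers tested, MYH11 being listed at 0 in all libraries, and with cytokines without PM10 4 rose and 1 fell. ACTG2 changed by -1.51 (adjusted p = 1.99e-05), MYLK by 1.35 (6.3e-05), TAGLN by 0.65 (2.7e-05) and ACTA2 by 0.56 (8.91e-05). With PM10 in normal hIECs 1 rose and 5 fell, and the list summed to 1689 to 1848 FPKM without and 1374 to 1399 FPKM with PM10. In inflamed hIECs, where VIM fell as well, 1 rose and 1 fell with PM10, and the sums were 2514 to 2551 FPKM without and 2543 to 2568 FPKM with PM10. Of all tested genes, 25.9% were called higher and 30.3% lower with cytokines without PM10. With PM10 the shares were 5.51% higher and 3.72% lower in normal hIECs, and 6.22% higher and 9.02% lower in inflamed hIECs. Smooth muscle also contains vimentin, and the part of the mesenchymal or the smooth muscle list in the VIM values was not tested.

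Where 25.9% of all tested genes were called higher with cytokines without PM10, all 10 proliferation markers rose, with a median of 0.68. Among them were TYMS at 1.16 (adjusted p = 3.94e-05), MKI67 at 1.03 (3.05e-05), BUB1 at 0.85 (0.000166) and TOP2A at 0.77 (6.32e-05). They summed to 156 to 163 FPKM in normal, 115 to 123 FPKM in normal PM10, 272 to 276 FPKM in inflamed and 248 to 250 FPKM in inflamed PM10 libraries. These sums stood beside the higher NES and the lower KRT8 and KRT18 with cytokines, and their part in those results was not tested. With PM10 in normal hIECs 8 of the 10 markers were called lower (median -0.46), where 3.72% of all tested genes were. NES, KRT8 and KRT18 were not called there. With PM10 in inflamed hIECs 1 of the 10 was called lower, where 9.02% of all tested genes were. Of the remaining marker lists, the endothelial list had ERG at -0.51 (adjusted p = 0.0023) as its single tested gene of 7, the mesothelial list had CALB2 at 1.61 (4.58e-05) and WT1 at -1.13 (5.84e-05) as the 2 tested of 6, and the 6 immune cell markers summed to at most 0.524 FPKM. Of the 2 tested epithelial markers, limma called 0 with cytokines without PM10 (1 at an unadjusted p under 0.05, and 1 called after quantile normalization), whereas both rose with cytokines in the presence of PM10. In that comparison 25.8% of all tested genes were called higher. CLDN6, 1 of the 2, passed the expression filter only through the libraries with cytokines, which leaves SPINT1 (0.58, limma adjusted p = 0.000354). With PM10 in inflamed hIECs CLDN6 rose by 0.94 and SPINT1 by 0.43, both called, where 6.22% of all tested genes were called higher. Their interactions were 0.83 and 0.58, both called, where 2.11% of all tested genes were called higher. LGR5, an intestinal stem cell gene, rose by 0.97 with cytokines without PM10 (limma adjusted p = 0.00013) and by 1.45 with PM10 (1.16e-05). With PM10 in inflamed hIECs LGR5 rose by 0.49 (limma adjusted p = 0.0172). The paper reports the opposite direction by qPCR, with lower LGR5 in cytokine-treated cells and in inflamed hIECs with PM10. KLF5, the other tested intestinal marker, did not follow LGR5. With cytokines it changed by -0.12 without PM10 (limma adjusted p = 0.238) and by -0.37 with PM10 (0.0059). With PM10 in normal hIECs KLF5 changed by 0.44 (limma adjusted p = 0.0235) and LGR5 by 0.01 (0.979). In inflamed hIECs PM10 changed KLF5 by 0.19 (limma adjusted p = 0.153).

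Lamins are the filament proteins under the nuclear envelope. Of all tested genes 56.2% were called with cytokines without PM10, 25.9% higher and 30.3% lower. With cytokines without PM10, 3 of 4 genes of the lamin list were called, all higher: LMNA by 0.50 (adjusted p = 0.00102), LMNB2 by 0.43 (0.000569) and LMNB1 by 0.34 (0.00121). LBR, the lamin B receptor gene, had 0.11 (adjusted p = 0.31). The genes that anchor filaments were divided. Among 9 cytolinkers, 5 were tested, and PLEC, the plectin gene, rose by 0.58 (adjusted p = 0.0052), MACF1 rose by 0.39 (0.0309) and DSP, which ties keratins to desmosomes, fell by 0.33 (0.0121). The MACF1 call was lost without normal replicate 2 or either inflamed library (adjusted p from 0.087 to 0.166), and that of DSP without inflamed replicate 2 (0.0587). Of 12 desmosome genes 7 were tested, and 5 rose and 1 fell. The cadherin genes DSG2 and DSC2 rose by 1.05 (adjusted p = 9.64e-06) and 0.92 (0.00168), PERP rose by 0.32 (0.0122) and the plakophilin gene PKP2 fell by 1.04 (9.91e-05). The PERP call was lost without inflamed replicate 1 (0.0614). DSC2 and DSC3 passed the expression filter only through the libraries with cytokines (adjusted p = 0.00256 for DSC2 with no filter), and of the other 5 tested genes 3 rose and 1 fell. DSG2 went from 5.04 and 4.52 FPKM to 10.9 and 11.04 FPKM, in the opposite direction to KRT8 and KRT18.

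The same lists were read for PM10. In normal hIECs 1 of 4 lamin genes (LMNB1, -0.24), 0 of 5 tested cytolinkers and 1 of 7 tested desmosome genes (PERP, 0.43) were called, where 9.23% of all tested genes were. At an unadjusted limma p under 0.05 the count of cytolinkers was 0 as well. In inflamed hIECs 1 lamin gene (LMNB1, -0.34), 3 cytolinkers (DST, -0.74, MACF1, -0.65, and DSP, 0.50) and 2 desmosome genes (DSG2, 0.55, and PERP, 0.48) were called, where 15.2% of all tested genes were. DST and the genes named only for these PM10 comparisons were chosen after their values were seen.

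The genes whose pattern was most like each member were found by the root mean square difference of log2(FPKM + 1), each gene centred on its own mean, over the 8 libraries and among 5049 protein-coding genes with a mean of at least 10 FPKM. Nearest to KRT8 were NOP53 (0.038), SLC22A17 (0.039) and GRAMD1A (0.041). Nearest to KRT18 were OBSL1 (0.065), H3F3A (0.076) and SERPINF1 (0.076). The 2 partner keratins differed from each other by 0.14. The genes named were picked as the nearest of 5049, with members left out of the search. Their distances therefore cannot be set against that of the partner. Nearest to VIM were CNOT9 (0.029), TMEM97 (0.049) and OST4 (0.050), and nearest to NES were PXDN (0.028), FDPS (0.031) and IARS (0.032). KRT7, KRT19 and KRT20 had means under 10 FPKM and were left out of this search.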

How the data were processed

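RNA from 8 libraries of H9-derived 2D hIECs, 2 for each of 4 groups taken from the labels, was analysed. The authors prepared poly-A selected, non-stranded libraries, trimmed the reads with Cutadapt, aligned them to hg38 with HISAT2 and estimated expression with StringTie. The values the authors deposited are FPKM, 1 value for each gene in each library, and they were not scaled further; the annotation release is not given in the sources used here. FPKM holds no read counts, and the read depth is unknown. Of 60558 genes, 99.5% had their identifier in GENCODE release 44, which gave positions and overlaps.

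Values were tested as log2(FPKM + 1) with limma 3.58.1 in R 4.3.3, with the variance following the mean, over all 4 groups, on the 14206 genes that reached 1 FPKM in 2 or more libraries. The adjusted p is by Benjamini-Hochberg within each of 5 comparisons, called under 0.05. Fold changes on this scale understate the change of low genes. The 2 cytokine comparisons and the 2 PM10 comparisons share libraries with each other. The procedure was tested on simulated data in which far fewer genes changed than were called here with cytokines. That test does not vouch for those calls.

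Alternatives were pseudocounts of 0.1 and 0.5, no filter or a filter of 5 FPKM, median centring, quantile normalization, nuclear genes rescaled to a common sum, protein-coding genes only, only the groups compared, no trend, a replicate block, copies added to KRT8 and KRT18, and each library left out. Deviations of same-numbered replicates were nearly uncorrelated between groups (correlations from -0.0015 to 0.079), and the reported fit used no pairing. Whether same-numbered libraries were cultured or processed together is not known.

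The genes named were the 7 members, of each of 15 lists up to 4 called genes with the largest change with cytokines without PM10 (all genes of lists with 4 or fewer), genes overlapping a member, and the 3 genes most like each member. The members, lists and tests were chosen with earlier results of these data known.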

Additional observations from a re-analysis of the deposited data

Results flagged for a closer look

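KRT7 drew a closer look because its response to PM10 differed between the inflamed and the normal state by the interaction test, with a difference of 1.02 on the log2 scale (SE 0.21, limma adjusted p = 0.0336). PM10 went with lower values in 2 of 2 normal libraries, and the inflamed libraries with and without PM10 overlapped. All 8 values were between 0.201 and 1.55 FPKM, and the call held in 9 of 18 fits. The normal libraries, its highest, carried KRT7 past the expression filter, and with no filter the adjusted p was 0.0512, so the interaction is given as a value only. It was 2.23 with a pseudocount of 0.1. Groups of 2 libraries are too small for a check of single outlying samples.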

How the results depend on the processing

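No value reversed where it had been called. For the members called, PM10 in normal hIECs gave 2 in the reported fit, 1 with a filter of 5 FPKM (which left KRT7 untested), 0 with only the compared groups fitted and 0 to 2 with each library left out. PM10 in inflamed hIECs gave 2, with 1 after quantile normalization, 1 with only the compared groups fitted and 0 to 3 with each library left out. The interaction gave 1, with 0 without a filter, 0 with the filter of 5 FPKM and 0 to 1 with each library left out. Leaving out each library gave 3 to 4 members for cytokines without PM10 and 4 to 5 with PM10. The replicate block gave 0 members for the interaction, where KRT7 had an adjusted p of 0.0549, and changed no other call of a member. The genes called with PM10 in normal hIECs were 1311 in the reported fit, 2067 after rescaling of the nuclear genes, 23 with only the compared groups fitted and 192 to 2601 with each library left out, the highest without normal replicate 1. Leaving out each library gave 672 to 2997 genes for PM10 in inflamed hIECs (2165 in the reported fit), 260 to 1257 for the interaction (937), 6270 to 7693 for cytokines without PM10 (7988) and 7723 to 9646 with PM10 (9286). The share of called genes that were higher depended on scaling: with PM10 in normal hIECs it was 59.7% as reported, 42.9% with median centring and 74.9% with nuclear rescaling, and for the interaction 32.0% as reported and 46.6% with quantile normalization. The keratin sum of normal hIECs was 631 FPKM after nuclear rescaling against 647 FPKM. With copies added, the ratio of type II to type I keratins was 1.55 in normal PM10 and 1.84 in inflamed PM10 hIECs, against 1.52 and 1.81. Apart from settings whose construction shows it (fewer genes or samples), the cause was not tested. With a library left out, 1 group rests on a lone library assumed to vary like the others. Scaling moved 10 list counts, among them type III and IV filaments with PM10 and quantile normalization (2 genes in normal, 4 in inflamed hIECs, against 1 and 2). FPKM without depth limits what can be said of KRT7 and KRT19.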
